A study of Mus musculus with 2 samples.

Results

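Complement is a plasma and tissue defense system made of proteins that cleave and activate one another in sequence. C1q, built from the chains C1qA, C1qB and C1qC, starts the classical route, C4 and C3 are the cleaved substrates on which the routes meet, and factor B builds the alternative route that amplifies C3 cleavage. Factor I and C1 inhibitor (encoded by *Serping1*) hold the system back, and C5aR1 is the receptor on leukocytes for the fragment C5a. In the kidney, tubule cells are a known local source of C3, and tissue macrophages are a known source of C1q.

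The 9 genes *C1qa*, *C1qb*, *C1qc*, *C4b*, *C3*, *Cfb*, *Cfi*, *Serping1* and *C5ar1* were followed here, taken by symbol from the 32285 genes of the count tables. All 9 had UMIs in both libraries, among 25365 genes with a UMI in any kept cell. The libraries were 1 control and 1 ischemic kidney of male wildtype C57BL/6J mice aged 19 weeks. The control was a contralateral kidney without injury of its own, not a kidney of an unoperated mouse. By the labels the ischemic kidney had 27 minutes of ischemia and 24 h of reperfusion. The study's methods give a slightly shorter clamp time, for a surgery that also removed the other kidney. Its figure legend for the single-cell data instead describes a unilateral injury, after which the uninjured contralateral and the ischemic kidneys were both taken. Whether both libraries came from the same mouse is not stated. With 1 library per condition no test was possible, no difference could be set against the spread between animals, and all 95% intervals cover counting error only.

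The levels are CPM, the UMIs (unique molecular identifiers, 1 per captured RNA molecule) of a gene summed over a group of cells, per 1e+06 UMIs of those cells. The kept cells, 12586 control and 13116 ischemia, carried a total of 124679362 and 128733541 UMIs, with medians of 3839 and 2138.5 per cell. They fell into 19 clusters, computed with complement genes left out of the variable genes, and gave 13 cell types named "-like" from marker genes, none of them a complement gene. Cluster 0 (36.2% of control and 44.6% of ischemia cells, median 835 UMIs), cluster 4 (6.67% and 5.68%) and cluster 16 (0.509% and 0.396%) stayed unnamed, and no cluster took the name fibroblast or injured tubule. The kept cells shared 58 barcodes between the libraries, and the doublet caller marked 0 cells, so doublets remained.

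Each gene had 1 main source. Macrophage-like cells held 96.7% of *C1qa* UMIs in control (5538 of 5727) and 96.4% in ischemia (10223 of 10604), although these cells carried 1.44% and 4.19% of all UMIs. The shares of *C1qb* (96.7% and 96.4%) and *C1qc* (96.7% and 96.9%) were alike, and those of *C5ar1* were 88.1% and 80.1%, with most of the remainder in neutrophil-like cells. Proximal tubule (PT)-like cells held 77.7% and 79.6% of *C3*, 87.3% and 85.2% of *Cfb*, 85.8% and 84.8% of *C4b*, and 77.7% and 85.0% of *Cfi*, while they carried 57.6% and 53.0% of all UMIs. Pericyte-like cells held 70.5% and 73.6% of *Serping1*. Of those UMIs, 342 of 510 in control and 383 of 862 in ischemia lay in cells with at least 3 UMIs of fibroblast genes. The complement genes were thus divided between macrophage-like, PT-like and pericyte-like cells in both kidneys.

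**Figure D1:**
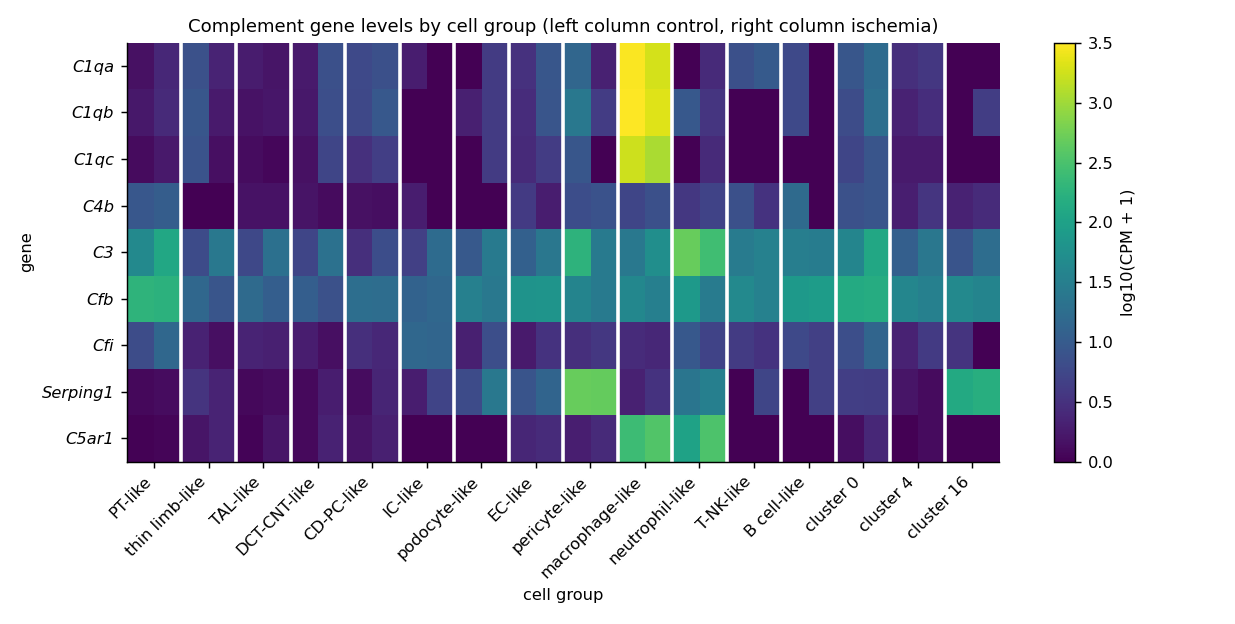
Levels of the 9 genes, as log10(CPM + 1), in each cell group, with the control library in the left and the ischemia library in the right column of each pair. The C1q chains are brightest in macrophage-like cells, *Cfb* in PT-like cells and cluster 0, and *Serping1* in pericyte-like cells and cluster 16. *C3* is brightest in the neutrophil-like cluster (490 and 265 CPM), above PT-like cells (43.5 and 124 CPM), which held most of its UMIs. In that cluster, 173 of 180 control and 224 of 325 ischemia *C3* UMIs lay in 14 and 18 cells that left it at a resolution of 0.6. The cells that stayed had 57.5 and 114 CPM. *C5ar1* is brightest in macrophage-like and neutrophil-like cells.

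**Figure D2:**
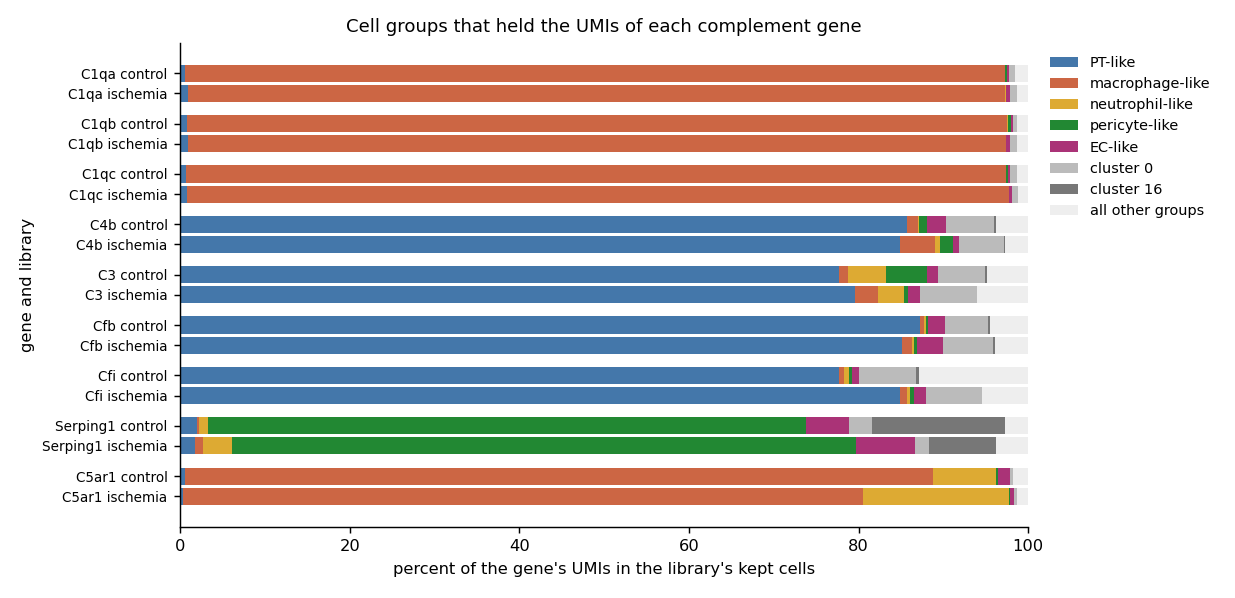
Percent of each gene's UMIs that each cell group held, 1 bar per gene and library. Macrophage-like cells fill 96.7% and 96.4% of the *C1qa* bars, and PT-like cells fill 77.7% and 79.6% of the *C3* bars.

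The C1q chains were the most concentrated of the 9 genes. Their genes lie side by side on chromosome 4, all on the minus strand: *C1qb* (ENSMUSG00000036905) at chr4:136880129-136886187, *C1qc* (ENSMUSG00000036896) at chr4:136889804-136893065 and *C1qa* (ENSMUSG00000036887) at chr4:136895917-136898803 (GRCm38). Because these neighbors shared their main source, the 250 bases before the start sites of *C1qb* (chr4:136886201-136886450) and *C1qc* (chr4:136892915-136893164), from RefSeq on GRCm38.p6, are shown 5′ to 3′ on the minus strand, with matches to any searched motif in capitals.
C1qb promoter: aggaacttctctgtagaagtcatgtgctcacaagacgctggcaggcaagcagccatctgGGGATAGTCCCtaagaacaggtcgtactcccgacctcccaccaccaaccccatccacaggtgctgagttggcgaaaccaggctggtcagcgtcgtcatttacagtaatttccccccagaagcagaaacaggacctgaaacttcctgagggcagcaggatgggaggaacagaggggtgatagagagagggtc
C1qc promoter: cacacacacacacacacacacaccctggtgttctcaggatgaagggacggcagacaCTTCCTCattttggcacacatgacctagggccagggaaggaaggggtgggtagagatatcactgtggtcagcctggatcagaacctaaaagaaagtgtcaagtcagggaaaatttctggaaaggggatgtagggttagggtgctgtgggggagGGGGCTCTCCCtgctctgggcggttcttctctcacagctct
The motifs searched, on both strands, were NF-kB (GGG, any 5 bases, then CC, in 45.8% of 32851 promoters of this length), PU.1, a myeloid factor (GAGGAAG, 10.6%), C/EBP (TTGCNNAA, 9.56%), GAS (TTCNNNGAA, 7.02%) and ISRE (GAAA, any 2 bases, then GAAA, 2.98%). *C1qb* held 2 overlapping NF-kB matches from base −191 to −181, counted back from the start site. *C1qc* held 2 overlapping NF-kB matches from −41 to −31 and a PU.1 match on the opposite strand from −194 to −188. Start sites are those of RefSeq, and that of *C1qc* lies inside the gene span given above. Entries were found for 4 of the 9 genes.

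In macrophage-like cells (288 control and 575 ischemia cells, medians of 5559.5 and 8638 UMIs) *C1qa* stood at 3090.1 CPM (3009–3173) in the control and at 1897 CPM (1861–1934.5) in the ischemia library. *C1qb* stood at 3189 and 2124.5 CPM, and *C1qc* at 1707 and 1135 CPM. All 3 chains were therefore lower per UMI in the ischemia library, with ratios of 0.614 (0.594–0.635), 0.666 (0.645–0.688) and 0.665 (0.636–0.695). Over all kept cells the direction was the opposite, since *C1qa* stood at 45.9 CPM in the control and at 82.4 CPM in the ischemia library, a ratio of 1.79. Of the followed genes, 6 had at least 50 UMIs in macrophage-like cells. Among these 6, only *C3* was at least 2-fold higher in ischemia (5.57% of 9110 genes were). None of the 6 was at least 2-fold lower (4.81% were). Without sub-cluster 3, described next, *C3* there stood at 24.7 and 38.9 CPM, a ratio of 1.57, which is no longer past 2-fold.

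The macrophage-like cells divided into 5 sub-clusters, again with complement genes left out, and different sub-clusters held most cells of each library. Sub-cluster 1, resident-type macrophage-like by its markers, held 188 of 288 control cells (65.3%) and 174 of 575 ischemia cells (30.3%). Sub-cluster 2, monocyte and infiltrating macrophage-like, held 21 control cells (7.29%) and 269 ischemia cells (46.8%). Sub-clusters 4 and 5 were dendritic cell-like, and sub-cluster 3 (34 and 75 cells) stayed unnamed, being led by tubule genes (*Slc5a12*, *Slc13a1*). The genes behind the sub-clusters may themselves differ after ischemia, so these shares were not read as cell numbers.

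Within resident-type cells the C1q level was nearly the same in both libraries. *C1qa* stood at 4732 CPM (4604–4862) in the control and at 4803 CPM (4700–4907) in the ischemia library, a ratio of 1.015 (0.980–1.05). *C1qb* stood at 4819.5 and 4913 CPM (ratio 1.02, 0.985–1.06), and *C1qc* at 2602 and 2802 CPM (ratio 1.08, 1.03–1.13). Cells of the infiltrating type had several times less, with *C1qa* at 746 CPM (606–909) in the control and at 471.5 CPM (445–499) in the ischemia library, *C1qb* at 1226 and 873 CPM, and *C1qc* at 449 and 361 CPM. In each library and for each chain the interval of sub-cluster 1 lay above that of sub-cluster 2. When the sub-cluster levels of the ischemia library were weighted by the control library's sub-cluster shares of UMIs, *C1qa* came to 3124 CPM, *C1qb* to 3223.5 CPM and *C1qc* to 1812.5 CPM, beside 3090.1, 3189 and 1707 CPM in control. In sub-cluster 1, 6 of the followed genes had at least 50 UMIs, and other complement genes were left out of this count. None of these 6 was at least 2-fold higher in ischemia (6.59% of 6083 genes were). Among them *C3* (32.9 and 15.5 CPM, 36 and 27 UMIs) and *Cfb* (37.5 and 18.3 CPM, 41 and 32 UMIs) were at least 2-fold lower (3.58% were). The share of cells with a *C3* UMI after thinning was not lower in ischemia (4 of 188 and 5 of 173). In all macrophage-like cells *Cfb* stood at 21.6% and 17.7% of its PT-like level, where PT marker genes stood at 19.4% and 14.1%. The part of free RNA in these levels was not tested. In sub-cluster 2, 5 of the followed genes had at least 50 UMIs. Among these 5, *C5ar1* and *C3* (15.2 and 59.4 CPM, from 2 UMIs in control) were at least 2-fold higher (14.4% of 5848 genes were). None of the 5 was at least 2-fold lower (7.44% were).

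The dendritic cell-like sub-clusters differed from each other. Sub-cluster 4 (*Cd209a* and *Ccr7* among its leading genes) held *C1qa* at 150.1 CPM in control (38 UMIs, 33 cells) and 561 CPM in ischemia (226 UMIs, 45 cells). Sub-cluster 5 (*Xcr1* and *Clec9a*, genes of cross-presenting dendritic cells) had 0 *C1qa* UMIs in either library, 12 cells each, and a count of 0 allowed up to 3 UMIs, or 21.5 and 17.6 CPM. In sub-cluster 4 single cells weighed heavily, as 1 ischemia cell carried 69 of its 227 *C1qb* UMIs.

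**Figure D3:**
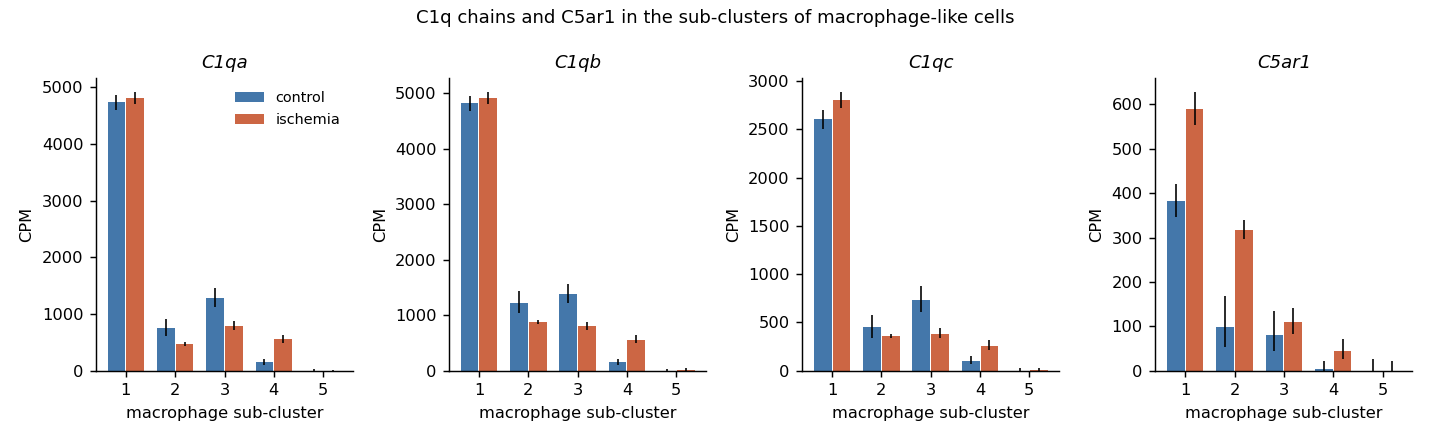
CPM of the C1q chains and *C5ar1* in the 5 macrophage sub-clusters, with control in blue, ischemia in orange and 95% Poisson intervals as lines. In sub-cluster 1 the *C1qa* bars reach 4732 and 4803 CPM, in sub-cluster 2 they reach 746 and 471.5 CPM, and *C5ar1* is higher in ischemia in both.

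Seen cell by cell at a depth of 1000 UMIs, most resident-type cells showed all 3 chains and most infiltrating-type cells showed none. After each cell was thinned to 1000 UMIs, 95.2% of resident-type control cells (91.1–97.8) and 92.5% of ischemia cells (87.5–95.9) had a *C1qa* UMI, against 97.9% and 95.4% unthinned. All 3 chains were detected together in 159 of 188 control and 147 of 173 ischemia cells. In infiltrating-type cells the thinned *C1qa* share was 23.8% in control (5 of 21) and 16.7% in ischemia (45 of 269). At that depth 179 of those 269 cells had no C1q UMI of any chain. Unthinned, at a median of 9260 UMIs, 30.1% of the 269 cells had a *C1qa* UMI, 42.4% a *C1qb* UMI and 38.3% a *C1qc* UMI. Thick ascending limb (TAL)-like cells, which should lack C1q, had a *C1qa* UMI in 0 of 498 control cells (which allows up to 0.602%) and 1 of 486 ischemia cells (0.206%) after thinning. Their median depths before thinning were 19907 and 24492 UMIs, greater than those of macrophage-like cells. In the shallow cluster 0, cells of at least 1000 UMIs had a thinned *C1qa* share of 0.661% in control (8 of 1210) and 1.74% in ischemia (14 of 806). The shares of resident-type and infiltrating-type cells stood above both.

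The balance of the chains also differed between the sub-clusters. Resident-type cells had 5276 *C1qb* against 5180 *C1qa* UMIs in control, a ratio of 1.02 (0.980–1.06), and 8573 against 8380 in ischemia, again 1.02 (0.993–1.05). Infiltrating-type cells had 161 against 98 in control, a ratio of 1.64 (1.27–2.13), and 2221 against 1199 in ischemia, a ratio of 1.85 (1.73–1.99). Among ischemia cells with at least 5 UMIs of both chains together, *C1qb* exceeded *C1qa* in 80 of 89 infiltrating-type cells and in 87 of 164 resident-type cells. In control 1 cell supplied 56 of the 161 *C1qb* UMIs. At a sub-clustering resolution of 0.5 a sub-cluster led by *Adgre4*, *Ace* and *Ear2* (15 control and 113 ischemia cells) separated. In it *C1qb* exceeded *C1qa* 3.46-fold in control (1.84–6.99), where 1 cell supplied 23 of the 45 *C1qb* UMIs, and 3.43-fold in ischemia (2.68–4.44). In the part led by *Arg1* and *Fn1* the ratio was 1.36 in control (1.02–1.83) and 1.73 in ischemia (1.61–1.86). There 1 control cell supplied 56 of the 116 *C1qb* UMIs. These are ratios of captured 3′ ends and not of chains per cell.

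Outside macrophages C1q was rare, and in some groups most of it lay in 1 or 2 cells. PT-like cells had 32 *C1qa* UMIs in control, spread over 30 cells (0.446 CPM), and 97 in ischemia (1.42 CPM), a ratio of 3.19, and 39 of the 97 lay in 1 cell. Distal convoluted and connecting tubule (DCT-CNT)-like cells had 7 and 48, of which 43 lay in 1 ischemia cell, and collecting duct principal cell (CD-PC)-like cells had 47 and 67, of which 24 and 62 lay in 1 cell per library. Without cells of 10 or more C1q UMIs, DCT-CNT-like cells held 7 and 5 *C1qa* UMIs and CD-PC-like cells 8 and 5. The general leukocyte genes *Tyrobp*, *Fcer1g* and *Laptm5* together stood in PT-like cells at 0.0328% of their macrophage-like level in control and 0.0672% in ischemia, beside 0.0178% and 0.0730% for C1q. In DCT-CNT-like cells they stood at 0.162% and 0.214%, beside 0.0235% and 0.323% for C1q, and in CD-PC-like cells at 0.113% and 0.284%, beside 0.147% and 0.344%. In pericyte-like cells the directions were opposite, 0.353% and 0.456% beside 0.567% and 0.0843%. There the control C1q UMIs lay in few of 179 cells, 14 of *C1qa* in 2, 25 of *C1qb* in 4 and 8 of *C1qc* in 3. The part of doublets and free RNA in these UMIs was not tested.

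*C4b* (ENSMUSG00000073418, chr17:34728380-34743882, minus strand), the classical-route substrate, was a low-level gene of the proximal tubule. PT-like cells held 560 UMIs in control, 7.80 CPM (7.17–8.47), and 677 in ischemia, 9.92 CPM (9.19–10.7), a ratio of 1.27 (1.14–1.42). By cluster the ratio was 1.36 in cluster 1 (5.93 and 8.09 CPM), 1.39 in cluster 2 (8.37 and 11.6 CPM) and 1.002 in cluster 5 (8.14 and 8.16 CPM), whose leading genes *Slc7a13* and *Kap* are those of the late proximal tubule. The higher level was thus found in clusters 1 and 2, with the interval of cluster 1 starting at 1.001. Clustering without integration turned the ratio of PT-like cells to 0.912 (0.730–1.13), and thinning turned it to 0.899 (0.520–1.53). *C4a*, a near-identical copy at chr17:34809092-34823464, had 26 UMIs in all, and reads that match both copies cannot be assigned, so the *C4b* values are uncertain to that extent. TAL-like cells had 5 and 6 *C4b* UMIs, and podocyte-like and thin limb-like cells 0, where a count of 0 allows up to 3 UMIs.

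*C3* (ENSMUSG00000024164, chr17:57203970-57228136, minus strand), the central component, had the highest ratio of the 9 genes in its main source, with an interval that overlapped that of *Cfi*. Its 250 bases before the start site, chr17:57228137-57228386 from RefSeq on GRCm38.p6 on the minus strand, are shown because *C3* differed in so many cell groups, with motif matches in capitals.
C3 promoter: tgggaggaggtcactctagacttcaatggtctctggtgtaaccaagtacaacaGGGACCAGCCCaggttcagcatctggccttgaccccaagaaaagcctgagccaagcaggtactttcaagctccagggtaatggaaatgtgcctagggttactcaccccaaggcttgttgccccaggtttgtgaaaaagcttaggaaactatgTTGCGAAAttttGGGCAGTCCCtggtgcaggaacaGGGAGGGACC
It held a C/EBP match (TTGCGAAA, −45 to −38) and 4 NF-kB matches, of which 2 overlap from −197 to −187 and the others lie from −33 to −24 and from −10 to −1. *C5ar1* held none of the 5 motifs in its window. A match describes letters and is not a binding site.

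In PT-like cells (3922 control and 2805 ischemia cells, medians of 13642 and 17816 UMIs) *C3* stood at 43.5 CPM (42.03–45.10) in the control and at 124 CPM (121–127) in the ischemia library, a ratio of 2.85 (2.73–2.97). The difference was present in each PT-like cluster: 50.9 and 113 CPM in cluster 1 (ratio 2.21), 27.2 and 109 CPM in cluster 2 (ratio 4.01) and 63.1 and 152 CPM in cluster 5 (ratio 2.41). The order of the clusters in control, 5 over 1 over 2, had intervals that did not overlap, while in ischemia clusters 1 and 2 overlapped. The counts by cluster cover the followed genes with at least 50 UMIs there. At least 2-fold higher in ischemia were *C3* and *Cfi* of 4 in cluster 1 (4.29% of all genes were). In cluster 2 they were *C3*, *Cfi* and *C1qb* of 5 (6.45%), and in cluster 5 *C3*, *Cfi* and *C1qa* of 5 (5.71%). None of these followed genes was at least 2-fold lower, where 2.37%, 3.44% and 3.96% of all genes were. The *C1qa* call in cluster 5 came from 6 UMIs in control and 50 in ischemia. The PT-like ischemia cell with 39 *C1qa* UMIs lay there, since clusters 1 and 2 held only 12 and 35 in ischemia. That call thus rests largely on 1 cell, and the ratio without it was not computed. After thinning to 1000 UMIs, 4.08% of control cells (154 of 3772) and 9.53% of ischemia cells (263 of 2759) had a *C3* UMI, beside 0.602% and 2.26% of TAL-like cells. The UMIs were spread over many cells, as the 10 highest held 9.88% of the control and 7.56% of the ischemia UMIs. In PT-like cells together, 7 of the 9 genes had at least 50 UMIs. Among these 7, *C3*, *Cfi* and the 3 C1q chains were at least 2-fold higher in ischemia (6.9% of 13545 genes were). The C1q calls rest on few UMIs, and 39 of the 97 ischemia *C1qa* UMIs lay in 1 cell. C1q stood in PT-like cells at 0.0178% and 0.0730% of its macrophage-like level, beside 0.0328% and 0.0672% for the general leukocyte genes. The part of doublets and free RNA in these calls was not tested. None of the 7 was at least 2-fold lower (3.91% were).

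*C3* also went with the injury gene *Havcr1*, which encodes the tubular injury marker KIM-1, within each library. Among PT-like cells of at least 5000 UMIs, control cells without a *Havcr1* UMI (2954 cells) had 37.6 CPM, those with up to 3 *Havcr1* UMIs per 10000 (151 cells) 94.9 CPM, and those with more (19 cells) 505 CPM (436–581). In ischemia the same 3 strata had 69.3 CPM (576 cells), 115 CPM (902 cells) and 167 CPM (690 cells). From the lowest to the highest stratum the level was 13.4-fold higher in control (11.55–15.55) and 2.40-fold higher in ischemia (2.24–2.59). Cells without *Havcr1* still differed between the libraries, with a ratio of 1.84 (1.71–1.99). In the highest stratum the 19 control cells stood above the ischemia cells. *Cfb* did not follow that order, at 189.6, 239.9 and 230.4 CPM in control and 181, 182 and 171 CPM in ischemia. *C4b* stood at 7.60, 10.3 and 12.9 CPM in control, the last from 5 UMIs, and at 11.53, 10.2 and 8.80 CPM in ischemia.

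**Figure D4:**
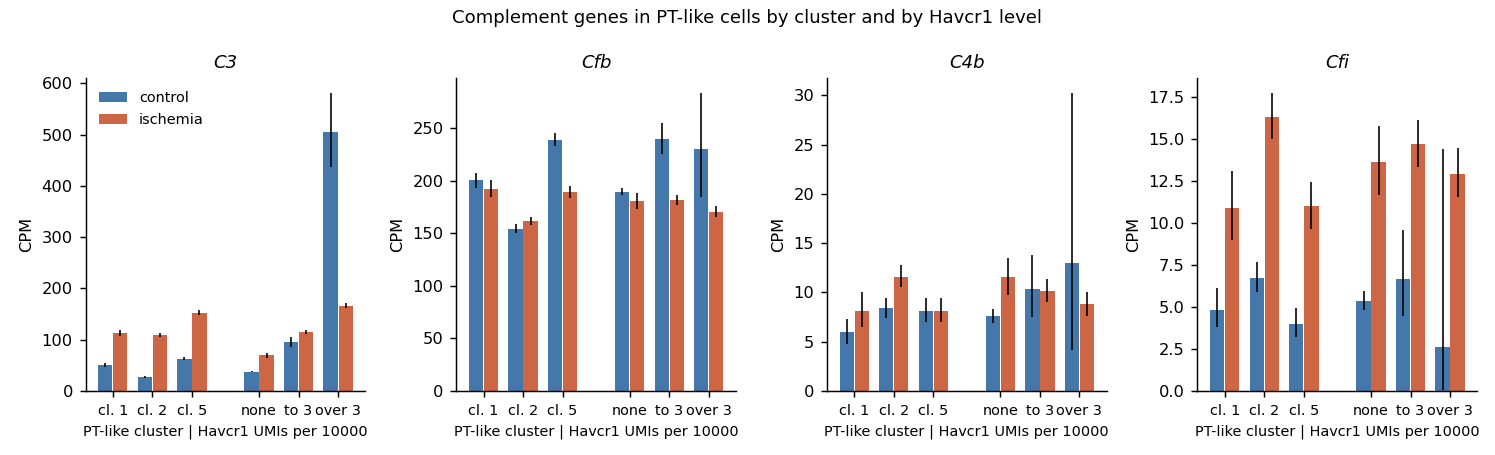
CPM of *C3*, *Cfb*, *C4b* and *Cfi* in the 3 PT-like clusters and, in cells of at least 5000 UMIs, by *Havcr1* UMIs per 10000 UMIs, with 95% Poisson intervals as lines. *C3* climbs with *Havcr1* in both libraries, to 505 CPM in the 19 control cells of the highest stratum, and *Cfi* is between 4.01 and 6.73 CPM in control and between 10.9 and 16.3 CPM in ischemia in the 3 clusters.

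The *C3* ratio in PT-like cells depended on which cells were counted. Without integration it was 1.75 (39.2 and 68.6 CPM), and in that clustering an unnamed cluster of 1336 cells, 1276 of them from ischemia and with *Havcr1* among its leading genes, stood outside the PT-like class. With single-cell marker gates it was 1.96 (39.0 and 76.5 CPM). It stayed above 1 in every setting listed under the dependence on processing.

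Other epithelial groups had less *C3* but a similar direction. TAL-like cells stood at 4.74 CPM in the control and at 18.5 CPM in the ischemia library (ratio 3.89, 2.85–5.41), DCT-CNT-like cells at 4.41 and 19.4 CPM, CD-PC-like cells at 1.92 and 5.79 CPM, and thin limb-like cells at 5.23 and 24.3 CPM. Endothelial (EC)-like cells stood at 11.003 and 23.7 CPM, and macrophage-like cells at 24.0 and 53.3 CPM. In TAL-like cells PT marker genes stood at 7.61% of their PT-like level in control and 4.45% in ischemia, *Cfb* at 8.003% and 5.80%, and *C3* at 10.9% and 14.9%. In EC-like cells the corresponding values were 25.9% and 18.3% for markers and 25.3% and 19.1% for *C3*. The part of free RNA in these levels was not tested. The counts past 2-fold cover the followed genes with at least 50 UMIs in a group. At least 2-fold higher in ischemia was 1 of 2 in TAL-like cells (*C3*, beside 7.94% of all genes). The same held for 3 of 4 in DCT-CNT-like cells (*C3*, *C1qa* and *C1qb*, beside 6.44%) and 1 of 5 in CD-PC-like cells (*C3*, beside 5.81%). In EC-like cells it held for 3 of 5 (*C3*, *C1qa* and *C1qb*, beside 1.9%). Of the EC-like cells, 10 of 908 in control and 23 of 1043 in ischemia had a *C1qa* UMI. The general leukocyte genes stood there at 0.637% and 0.877% of their macrophage-like level, beside 0.0701% and 0.356% for C1q. The part of doublets and free RNA in these C1q calls was not tested. Without the 1 ischemia DCT-CNT-like cell that had 10 or more C1q UMIs, *C1qa* and *C1qb* had ratios of 0.846 and 1.18 there, which left *C3* alone. None of these followed genes was at least 2-fold lower, where 7.81%, 4.99%, 4.56% and 3.55% of all genes were. Of other complement genes in TAL-like cells, *Clu* was at least 2-fold higher and *Cd59a*, *Cd59b* and *Susd4* were at least 2-fold lower.

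In pericyte-like cells *C3* ran the other way, with 184 CPM (159–212) in control and 27.2 CPM (20.2–35.8) in ischemia, a ratio of 0.148 (0.106–0.202). These 191 control UMIs lay in few cells, the 10 highest of 179 cells holding 94.8%. Cells with at least 3 UMIs of fibroblast genes held 532 CPM in control (49 cells) and 42.5 CPM in ischemia (85 cells), beside 3591 and 859 CPM of *Dcn*, the matrix gene decorin. The other pericyte-like cells held 11.54 and 17.6 CPM, a ratio of 1.53 (0.645–4.01) that reverses the direction. In all pericyte-like cells, 3 of the followed genes had at least 50 UMIs. Among these 3, *C3* alone was at least 2-fold lower in ischemia (2.45% of 7225 genes were). None of the 3 was at least 2-fold higher (3.25% were).

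The neutrophil-like cluster also held cells that differed in *C3*. It had *C3* at 490 CPM in 33 control cells and 265 CPM in 209 ischemia cells. The 14 control and 18 ischemia cells that left the cluster at resolution 0.6, which had 0 UMIs of the neutrophil gene *S100a8*, had 704.5 and 662 CPM. At that resolution a further cluster with the same cell counts, led by *Cp*, *Ncam1* and *Tnc*, took the name pericyte. The 19 and 191 cells that stayed, at 38495 and 33176 CPM of *S100a8*, had 57.5 and 114 CPM, a ratio of 1.98 (0.925–5.04), so the direction depended on those cells.

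*Cfb* (ENSMUSG00000090231, chr17:34856374-34862518, minus strand), the factor B gene of the alternative route, had the most UMIs of the 9 genes, 15714 in control and 14080 in ischemia. PT-like cells stood at 191 CPM (188–194) in the control and at 176 CPM (173–179) in the ischemia library, a ratio of 0.919 (0.897–0.942). The clusters differed in direction, at 201 and 193 CPM in cluster 1 (ratio 0.960), 155 and 162 CPM in cluster 2 (ratio 1.05, 1.008–1.09) and 239 and 189 CPM in cluster 5 (ratio 0.791, 0.760–0.823). The late-segment cluster 5 was the highest in control, and clusters 1 and 5 overlapped in ischemia. After thinning, 15.9% of control and 15.3% of ischemia cells had a *Cfb* UMI, beside 2.01% and 1.85% of TAL-like cells. Thus *Cfb* and *C3*, partners in the alternative-route convertase, had the same main source and differed from each other in their ratios. EC-like cells, the next source by UMIs among named groups, stood at 62.2 and 64.2 CPM, or 32.6% and 36.5% of the PT-like level where PT markers stood at 25.9% and 18.3%.

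*Cfi* (ENSMUSG00000058952, chr3:129835884-129875332, plus strand), which encodes the protease that cuts C3b and C4b, was low and higher in ischemia. PT-like cells stood at 5.47 CPM (4.95–6.04) in the control and at 13.7 CPM (12.9–14.6) in the ischemia library, a ratio of 2.51 (2.23–2.83). The ratio was 2.25 in cluster 1, 2.43 in cluster 2 and 2.75 in cluster 5, and 2.53 (2.10–3.04) in cells without *Havcr1*. Unlike *C3*, *Cfi* in ischemia was at 13.6, 14.7 and 12.9 CPM over the 3 *Havcr1* strata, with overlapping intervals. Intercalated cell (IC)-like cells, from the collecting duct, held *Cfi* at 13.6 CPM in control (15 UMIs) and 12.7 CPM in ischemia (12 UMIs), or 248.96% and 92.8% of the PT-like level, while PT markers in them stood at 6.04% and 8.27%. Without integration the PT-like ratio was 1.75, and after thinning 4.79.

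*Serping1* (ENSMUSG00000023224, chr2:84765387-84775444, minus strand), the C1 inhibitor gene, had its highest level in pericyte-like cells. Pericyte-like cells stood at 492 CPM (450–536) in the control and at 468 CPM (438–501) in the ischemia library, a ratio of 0.953 (0.853–1.07). Cluster 16, unnamed and led by *Ptn*, *Adamts5* and *Itga8*, followed at 135 and 157 CPM. Neutrophil-like cells stood at 21.8 and 31.8 CPM (8 and 39 UMIs, all in the cells that left that cluster at resolution 0.6). Podocyte-like cells stood at 5.29 and 24.0 CPM (5 and 8 UMIs), and EC-like cells at 7.20 and 12.4 CPM. PT-like cells had 14 and 20 UMIs, or 0.195 and 0.293 CPM. Behind the near-equal pericyte values, cells with at least 3 fibroblast UMIs stood at 994 and 543 CPM (342 and 383 UMIs) and the others at 242 and 422 CPM (168 and 479 UMIs). Without the former the ratio was 1.74, and with single-cell marker gates 1.87, so the direction in pericyte-like cells depended on which cells were counted.

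*C5ar1* (ENSMUSG00000049130, chr7:16246743-16259540, minus strand), the C5a receptor gene, was higher in the ischemia library in both of its sources. Over all kept cells it stood at 4.06 CPM in control (506 UMIs) and 18.5 CPM in ischemia (2387 UMIs). In macrophage-like cells it stood at 248.9 CPM (226–273) in the control and at 355 CPM (339–371) in the ischemia library, a ratio of 1.43 (1.29–1.59). The same direction held in resident-type cells, at 382 and 589.7 CPM (ratio 1.54, 1.38–1.73), and in infiltrating-type cells, at 99.0 CPM (13 UMIs) and 318 CPM (ratio 3.21, 1.87–6.05). Dendritic cell-like sub-cluster 4 had 1 and 18 UMIs, and sub-cluster 5 had 0 in both libraries. With the control library's sub-cluster shares the ischemia level came to 400.5 CPM. *C5ar1* and C1q therefore differed in where they were high, since in ischemia the resident-type and infiltrating-type cells stood at 589.7 and 318 CPM for *C5ar1* and at 4803 and 471.5 CPM for *C1qa*.

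Neutrophil-like cells held *C5ar1* at 104 CPM in control (38 UMIs, 33 cells) and 337 CPM in ischemia (413 UMIs, 209 cells). Without the cells that left at resolution 0.6 these values were 312 and 465 CPM, with a ratio of 1.49 in place of 3.25. Those departing cells had 0 *C5ar1* UMIs in either library. After thinning, a *C5ar1* UMI was found in 17.7% of the macrophage-like cells from control and 24.4% of those from ischemia, beside 0 of 498 and 0 of 486 TAL-like cells. In neutrophil-like cells 3 of the 9 genes had 50 UMIs. Among these 3, *C5ar1* was at least 2-fold higher in ischemia (15.8% of 4682 genes were) and *Cfb* at least 2-fold lower (8.63% were). Without the cells that left, *Cfb* stood at 41.1 and 32.6 CPM (5 and 29 UMIs), a ratio of 0.794 (0.304–2.63). Neither gene was then past 2-fold.

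**Figure D5:**
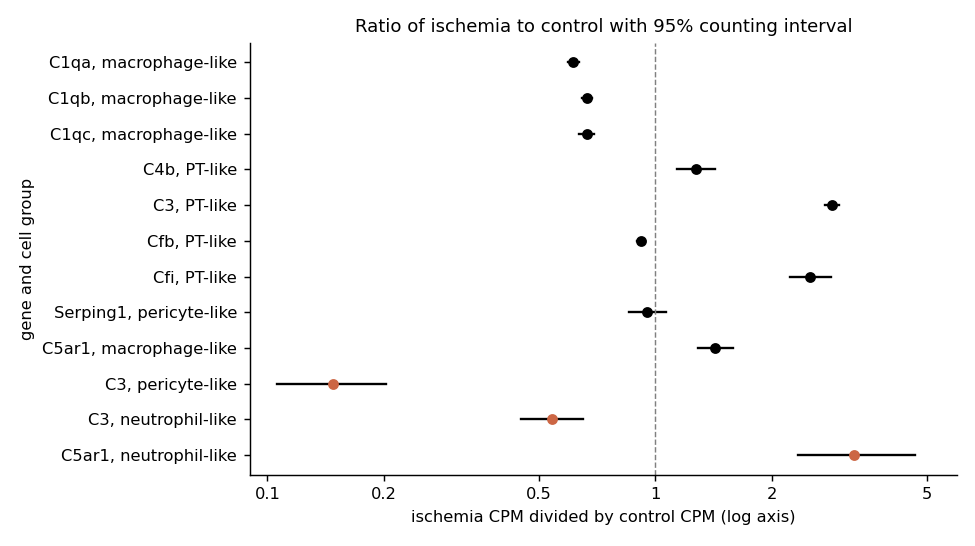
Ratio of ischemia to control CPM, on a log axis, for each gene in its main cell group (black) and for *C3* and *C5ar1* in further groups (orange), with 95% counting intervals as lines. The C1q chains lie near 0.6 to 0.7, *C3* and *Cfi* in PT-like cells lie above 2, and *C3* in pericyte-like cells lies at 0.148.

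Set side by side over all kept cells, *C3* (32.3 and 82.6 CPM), *Cfi* (4.06 and 8.57 CPM) and *C5ar1* were at least 2-fold higher in ischemia, 3 of 9 genes where 8.75% of 17061 genes were, and none was at least 2-fold lower (4.13% were). In the main group of each gene, *C3* and *Cfi* were at least 2-fold higher, 2 of 9 genes where 6.74% of 15711 genes with at least 100 UMIs were, and none was at least 2-fold lower (5.14% were). These counts are small, and no list was tested.

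The wider complement system was read from a list of 55 genes, of which 46 were outside the 9. Of those 46, 29 had at least 100 UMIs, and in the main group of each gene 8 were at least 2-fold higher in ischemia and 5 at least 2-fold lower, beside the same 6.74% and 5.14% of all genes. Of the classical route, *C1ra* (0.724 and 1.54 CPM in PT-like cells) was higher, while *C2* (26.8 and 34.0 CPM) and *C1s1* in pericyte-like cells (81.0 and 76.6 CPM) stayed within 2-fold. Of the lectin route, *Masp1* was higher (0.265 and 0.733 CPM), and *Mbl1*, *Mbl2* and *Colec12* stayed within 2-fold. *Cfp*, the gene of properdin, which stabilizes the alternative convertase, stood at 78.1 and 201 CPM in macrophage-like cells, a ratio of 2.57, with ratios of 2.15 in resident-type and 1.96 in infiltrating-type cells. Within the infiltrating type at a sub-clustering resolution of 0.5, it was 2.69 (1.15–8.31, from 5 control UMIs) in the part led by *Arg1* and *Fn1*. In the part led by *Adgre4*, *Ace* and *Ear2* it was 0.905 (0.510–1.75). Of the terminal components, *C8a* was lower in PT-like cells (1.16 and 0.132 CPM, 83 and 9 UMIs), *C9* higher (0.279 and 1.08 CPM, 20 and 74 UMIs), *C8g* at 13.2 and 7.21 CPM and *C7* in pericyte-like cells at 168 and 133 CPM.

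Among regulators, 3 of 5 fluid-phase ones with at least 100 UMIs, *Cfi* included, were at least 2-fold higher in ischemia and none lower. Each was read in its own main group, where 6.74% of all genes were higher and 5.14% lower. *Clu*, the gene of clusterin, stood at 1533.5 CPM in the control and at 14047 CPM in the ischemia library in CD-PC-like cells, and *Cpn1*, a subunit of the enzyme that inactivates anaphylatoxins, at 128 and 272 CPM in PT-like cells. Of the membrane regulators, 3 of 6 with at least 100 UMIs were at least 2-fold lower in their main group and none higher, beside 5.14% and 6.74% of all genes. They were *Cd59a* in TAL-like cells (141 and 56.8 CPM), *Cd59b* in CD-PC-like cells (20.2 and 9.83 CPM), which block the membrane attack complex, and *Susd4* in TAL-like cells (22.7 and 7.87 CPM). These main groups held only 19.6% of *Cd59a*, 23.3% of *Cd59b* and 36.0% of *Susd4* UMIs. Over all kept cells the ratios of the 3 genes were 0.579, 0.520 and 0.562, which are lower in ischemia but not past 2-fold. *Cd55*, *Cd46* and *Cr1l*, which act at the C3 step, had ratios of 0.936, 0.901 and 1.06 in PT-like cells. Elsewhere *Cd55* differed in direction, at 3.91 and 7.98 CPM in macrophage-like cells (7 and 43 UMIs) and 10.4 and 5.01 CPM in EC-like cells. *Cd59a* and *Cd59b* are close copies, so their reads may be shared.

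Of the receptors, *Itgam* and *Itgb2*, the chains of complement receptor 3, stood at 117 and 295 CPM and at 99.3 and 227 CPM in macrophage-like cells, with ratios of 2.52 and 2.28. *C3ar1*, the C3a receptor gene, stood at 111 and 133 CPM there, a ratio of 1.20, at 164 and 237 CPM in resident-type cells, and at 45.7 and 110.5 CPM in infiltrating-type cells (ratio 2.42, 1.10–6.65, from 6 control UMIs). That ratio depended on the sub-clustering. At a resolution of 0.5 the part led by *Arg1* and *Fn1* had 6 and 269 *C3ar1* UMIs (157 and 166 CPM), a ratio of 1.06 (0.480–2.91). The part led by *Adgre4*, *Ace* and *Ear2* had 0 and 21 UMIs. *Cr2* in CD-PC-like cells was lower (12.8 and 5.97 CPM). *C5ar2*, *Itgax*, *Cd93* and *C1qbp* stayed within 2-fold in the main group of each, while the first 3 were at least 2-fold higher over all kept cells.

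As a description of pattern, the genes outside the complement list most like each of 4 genes were sought over 22 profiles of cell group and library with at least 50 cells, by Pearson's r of log2(CPM + 1). For *C1qa* they were *Mgl2* (r = 0.958), *Clec4b1* (0.952) and *Ms4a7* (0.951), and for *C5ar1* they were *Btk* (0.989), *I830077J02Rik* (0.989) and *Lrrc25* (0.989). For *C4b* they were *Serpinf2* (0.889), *Helb* (0.856) and *Mdk* (0.851), and for *C3* they were *1810058I24Rik* (0.811), *Acat3* (0.796) and *Aldh3b1* (0.785). The profiles share 2 libraries and their depths, so these values were given no test. The best match of *C3* was weaker than that of the other 3 genes.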

How the data were processed

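Single-cell RNA-seq of 1 control and 1 ischemic mouse kidney was analysed. The files the authors deposited hold raw UMI counts for every gene in every barcode, made with Cell Ranger 7.0.0 against mm10 according to the submitters' processing notes. Barcodes were kept if they had 200 genes or more, between 500 and 150000 UMIs, and no more than 55% of them mitochondrial, which left 12586 and 13116 cells with 124679362 and 128733541 UMIs. They were integrated and clustered in Seurat 5.3.0 (R 4.3.3) with 2000 variable genes, none from the list of 55 complement genes, 30 principal components, resolution 0.3 and seed 42. Clusters were named from 16 marker lists, and the fibroblast, injured tubule and urothelium lists named none. Scrublet (scanpy 1.11.5) called 0 doublets in either library and so had not worked, and in an alternative the 8% of highest-scoring cells were removed. UMIs were summed per gene, cell group and library as CPM with exact 95% Poisson intervals, ratios had exact conditional intervals, and shares of cells had Clopper-Pearson intervals, all covering counting error only (Python 3.11.15, numpy 2.4.6, scipy 1.17.1, pandas 2.3.3, matplotlib 3.10.9). Shares were also taken after thinning each cell to 1000 UMIs, with shallower cells left out. For the background, genes with at least 50 UMIs in a cell group and a ratio past 2-fold were counted. With 1 library per condition, no p-value was computed.

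The text names all 9 genes, other listed complement genes with at least 100 UMIs (1 is not reported here), the 3 genes most like each of 4 members, and general leukocyte genes. *Dcn*, *S100a8*, *Havcr1* and the leading genes of clusters were named beside the results they touch. The members and lists were chosen with earlier results of these data known. The scripts were tested on simulated data.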

Additional observations from a re-analysis of the deposited data

Results flagged for a closer look

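The direction of the difference between the libraries was not the same in all cell types for *C1qa*, *C1qb*, *C1qc* and *C3*, and with 1 library per condition the difference between cell types was not tested. *C1qa* had an ischemia to control ratio of 8.09 in DCT-CNT-like cells, where 43 of 48 ischemia UMIs lay in 1 cell, and 0.614 in macrophage-like cells. *C1qb* had 9.05 in DCT-CNT-like cells, and 1.18 (6 UMIs in each library) without the 1 ischemia cell of 10 or more C1q UMIs, and 0.666 in macrophage-like cells. *C1qc* had 2.73 in PT-like cells (20 and 52 UMIs, in 18 of 3922 and 35 of 2805 cells) and 0.665 in macrophage-like cells. The part of doublets and free RNA in these PT-like UMIs was not tested. Among named cell types with at least 50 UMIs of *C3* and an interval that excluded 1, *C3* was higher in ischemia in 7, with the highest ratio, 4.64, in thin limb-like cells, and lower in 2, with 0.148 in pericyte-like and 0.540 in neutrophil-like cells. These 2 ratios were 1.53 and 1.98 without the cells named in the report.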

How the results depend on the processing

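Of 106 ratios recomputed under alternative settings, 97 lay on the same side of 1 as the reported value and 9 on the other side. In 4 of these 9 the reported interval had excluded 1, and only these are called reversed, while the other 5 were all of *Serping1*, whose reported interval (0.853–1.07) included 1. In all, 73 ratios stayed within the counting interval of the reported one and 29 moved out of it without reversing. With a mitochondrial limit of 25% the ratio was 0.590 for *C1qa*, 0.637 for *C1qb* and 2.62 for *C3* in PT-like cells. Without the 8% of highest doublet scores *C1qa* was 0.593. Without integration *C1qa* was 0.637, *C1qb* 0.691, *C3* 1.75, *Cfi* 1.75 and *Serping1* 1.19, and *C4b* reversed to 0.912. With single-cell marker gates the ratios were 0.558 for *C1qa*, 0.604 for *C1qb*, 0.603 for *C1qc*, 1.96 for *C3*, 0.957 for *Cfb* and 1.87 for *Serping1*. As a mean of each cell's CPM they were 0.552 for *C1qa*, 0.616 for *C1qb*, 0.5865 for *C1qc* and 1.27 for *C5ar1*. After thinning they were 0.510, 0.634 and 0.582 for the same C1q chains, 2.68 for *C3*, 4.79 for *Cfi*, 0.813 for *Serping1* and 1.24 for *C5ar1*, and *C4b* reversed to 0.899. With complement genes among the variable genes *Serping1* was 1.18. Further alternatives were chosen after seeing the data. Of these, leaving out pericyte-like cells with 3 or more fibroblast UMIs gave 1.74 for *Serping1* and reversed *C3* to 1.53, and leaving out neutrophil-like cells that separated at resolution 0.6 gave 1.49 for *C5ar1* and reversed *C3* to 1.98. The cause of these shifts was not tested. The other added alternatives, without sub-cluster 3 and without the shared barcodes, moved none of these ratios beyond the counting interval. No paired analysis was possible because each condition had 1 library. After thinning, the intervals were wide for *C4b* (0.520–1.53) and *Cfi* (2.47–9.98).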
